A study of Mus musculus with 6 samples.

Results

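Ahnak and 9 listed genes of the S100, annexin and galectin families were followed in sorted mouse bone marrow progenitors with and without an active form of Notch2. The list holds Ahnak, S100a4, S100a6, S100a10, S100a11, Anxa1, Anxa2, Anxa5, Lgals1 and Lgals3. It was chosen with measured values of the comparison described here in view, so the members' differences between genotypes are given as a description, with no test. Probe sets whose annotated gene was exactly a listed member were read. These were 18 probe sets for 9 of the 10 genes, out of 18193 genes with a probe set of their own. S100a11 is not read here, since its probe set is annotated to other genes as well. Of the 18 probe sets, 14 passed the filter on low values, and every one of the 9 genes kept at least 1 of them.

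The samples were 3 arrays of Rosa-lsl-ICN2 Mx1-cre+ cells from males (ICN2-positive), set against 3 arrays of Mx1-cre+ cells from female littermates (ICN2-negative). In both groups the cells were lineage-negative, cKit+ and Sca1- bone marrow cells, labelled myeloerythroid progenitors, from mice aged 6 weeks. All mice received polyIC 3 times on alternate days, at 20 mcg/g, and were analysed 1 week after the last dose. PolyIC induces interferon, which turns on Mx1-cre in the many cell types that respond to interferon, so both groups carry the recombinase and the interferon stimulus. ICN2 is the intracellular part of Notch2, placed behind a stop cassette that Cre removes. The comparison therefore asks which transcripts differ when Notch2 signalling is held on in these progenitors. Sex and genotype cannot be told apart in it: Xist lay at 4.70 to 5.47 (log2 intensity) in ICN2-positive and 11.22 to 11.38 in ICN2-negative arrays, and the Y-linked Eif2s3y at 11.17 to 11.72 in ICN2-positive and 3.25 to 3.78 in ICN2-negative arrays. None of the members lies on a sex chromosome.

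Ahnak is a very large scaffold protein beneath the plasma membrane. Annexin A2 forms a complex with the S100 protein that S100a10 encodes, and this complex binds Ahnak at the membrane. Annexins are proteins that bind membrane phospholipids when calcium rises, and they take part in membrane repair, vesicle traffic and blebbing. S100 proteins are small calcium sensors that act by binding partners, annexins among them. Galectins bind beta-galactoside sugars on glycoproteins, inside and outside the cell. In blood cells, Anxa1 is known for its abundance in neutrophils, and the protein of Lgals3 is a classical macrophage marker.

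Levels are given as log2 of the RMA intensity of a probe set on an array. The arrays had median log2 intensities of 6.05 to 6.09. Replicate 1 of the ICN2-positive group lay apart from the others. Its correlation across tested probe sets was 0.966 and 0.974 with the other ICN2-positive arrays, which correlated at 0.991 with each other, and the ICN2-negative arrays correlated at 0.989 to 0.991. Its 3′ to 5′ log2 difference for the beta-actin control was 1.01, against 0.71 and 0.75 on the other ICN2-positive arrays and 0.79 to 0.85 on ICN2-negative arrays. Values of the members are therefore given for each array and without this replicate. Whether RNA quality has a part in the values was not tested. Kit, the receptor used for the sort, lay at 10.15 to 10.86 in ICN2-positive and 10.38 to 10.50 in ICN2-negative arrays, a difference of 0.12 ± 0.19 (SE). Of 6 markers of the sorted progenitors, Kit among them, 4 means were lower and 2 higher, with 0 called by limma. Their summed linear intensity was 21286 to 41522 in ICN2-positive and 41799 to 44325 in ICN2-negative arrays, lowest in ICN2-positive replicate 1. Ly6a, which encodes Sca1, is not read here. The labels do not say that replicates were separate animals, so errors and p-values cover the spread among these arrays, part or all of which may be technical.

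The 250 bases upstream of the annotated transcription start are shown for 4 members whose groups did not overlap (Ahnak, S100a4, S100a6 and Lgals3) and for 1 whose groups did (Anxa2), so that the letters can be set beside the values that follow. They come from RefSeq (GRCm38.p6), read 5′ to 3′ on the + strand, at chr19:8989034-8989283 for Ahnak, chr3:90603520-90603769 for S100a4, chr3:90612644-90612893 for S100a6, chr14:47373610-47373859 for Lgals3 and chr9:69453433-69453682 for Anxa2. Capitals mark matches, on either strand, to TGGGAA (the core bound by Rbpj, the DNA-binding partner of Notch), TGANTCA (the AP-1 site), GGGCGG (the GC box), TATAAA (the TATA box) and CACGTG (the E box). A match on the other strand appears as its reverse complement, such as TTCCCA or CCGCCC. None of the matches shown overlap.
Ahnak: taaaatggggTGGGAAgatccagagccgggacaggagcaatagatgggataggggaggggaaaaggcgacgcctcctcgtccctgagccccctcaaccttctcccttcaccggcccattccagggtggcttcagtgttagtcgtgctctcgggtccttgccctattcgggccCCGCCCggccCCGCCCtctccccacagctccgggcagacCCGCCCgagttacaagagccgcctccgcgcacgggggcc
S100a4: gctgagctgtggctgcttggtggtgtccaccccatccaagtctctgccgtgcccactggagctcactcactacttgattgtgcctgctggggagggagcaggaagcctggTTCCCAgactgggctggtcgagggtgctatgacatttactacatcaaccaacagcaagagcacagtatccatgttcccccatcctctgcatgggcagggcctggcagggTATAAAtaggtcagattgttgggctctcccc
S100a6: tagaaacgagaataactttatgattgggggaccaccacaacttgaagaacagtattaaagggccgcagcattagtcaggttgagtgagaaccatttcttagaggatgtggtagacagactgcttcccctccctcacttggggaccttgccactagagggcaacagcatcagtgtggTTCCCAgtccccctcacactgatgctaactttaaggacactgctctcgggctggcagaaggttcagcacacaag
Lgals3: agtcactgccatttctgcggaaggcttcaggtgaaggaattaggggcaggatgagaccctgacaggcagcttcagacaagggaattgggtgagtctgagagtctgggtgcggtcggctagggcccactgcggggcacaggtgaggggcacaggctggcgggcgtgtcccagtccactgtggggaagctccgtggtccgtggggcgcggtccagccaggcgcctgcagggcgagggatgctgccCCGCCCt
Anxa2: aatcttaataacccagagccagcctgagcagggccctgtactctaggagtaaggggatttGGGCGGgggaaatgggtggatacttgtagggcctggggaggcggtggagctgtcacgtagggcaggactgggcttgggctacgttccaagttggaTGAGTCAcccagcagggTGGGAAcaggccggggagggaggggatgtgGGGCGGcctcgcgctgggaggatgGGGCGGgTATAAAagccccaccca

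Promoter sequence was at hand for 8 of the 10 members, those other than S100a10 and Lgals1. TGGGAA or its complement was found in 4 of these 8 (Ahnak, S100a4, S100a6 and Anxa2), and in 21.6% of 32851 promoter windows of the same length. In these windows its first letter lay 240 bases before the start for Ahnak, 140 for S100a4, 74 for S100a6 and 78 for Anxa2. The GC box was found in 4 of 8 (32.7% of all windows), the TATA box in 3 of 8 (12.4%), the AP-1 site in 2 of 8 (6.75%) and the E box in 1 of 8 (6.02%). The TATA box of S100a4 began 31 bases, that of Anxa1 32 bases and that of Anxa2 17 bases before the start. The Rbpj core therefore stood both in windows of genes whose groups were separated and in that of Anxa2, whose groups overlapped. These are matches of letters in a short window and say nothing of whether a factor binds there.

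Ahnak was the member with the largest difference. Its brightest probe set read 7.75, 8.97 and 8.58 (log2 intensity) in ICN2-positive replicates 1, 2 and 3, against 11.58, 11.71 and 11.87 in ICN2-negative replicates. All ICN2-positive arrays lay below all ICN2-negative arrays, by far more than the spread within either group. The means were 8.43 ± 0.62 in ICN2-positive and 11.72 ± 0.14 in ICN2-negative cells (SD, n = 3 each), a fitted difference of -3.29 ± 0.31 (SE), or 9.75-fold lower. Without ICN2-positive replicate 1 the difference was -2.95, or 7.70-fold lower. In bulk samples such as these, fewer cells of a type and less RNA per cell cannot be told apart.

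Ahnak had 3 further probe sets. One of them, also above the limit for low values on all 6 arrays, read 5.92, 5.62 and 5.80 in ICN2-positive arrays against 6.55, 6.81 and 7.12 in ICN2-negative arrays, a difference of -1.05 on the log2 scale. Its groups were separated as well, with a smaller difference. The limit is the 40th percentile of each array, 5.26 to 5.30. The remaining probe sets passed it on 1 array and on 0 arrays, were not tested, and differed by -0.07 and -0.23 on the log2 scale with overlapping groups.

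S100a4, a small calcium-binding protein known for binding non-muscle myosin and for its high level in motile cells, followed Ahnak closely. It read 6.03, 7.90 and 6.79 in ICN2-positive replicates 1, 2 and 3, against 9.95, 10.38 and 10.09 in ICN2-negative replicates. On the linear scale these were intensities of 65.3, 239 and 111 in ICN2-positive and 987, 1337 and 1092 in ICN2-negative arrays. The lowest, in ICN2-positive replicate 1, was near the median of that array (6.03 against 6.05 on the log2 scale). The groups did not overlap, although the ICN2-positive arrays were spread more widely than the ICN2-negative ones. The means were 6.91 ± 0.94 in ICN2-positive and 10.14 ± 0.22 in ICN2-negative cells (SD, n = 3 each), a difference of -3.23 ± 0.47 (SE), or 9.41-fold lower, and -2.80 (6.94-fold lower) without ICN2-positive replicate 1.

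S100a6, or calcyclin, binds annexins and the adaptor encoded by Cacybp. It read 6.51, 7.53 and 7.30 in ICN2-positive arrays, against 9.55, 9.76 and 9.50 in ICN2-negative arrays. The arrays were again fully separated, and ICN2-positive replicate 1 was again the lowest. The means were 7.11 ± 0.54 in ICN2-positive and 9.60 ± 0.14 in ICN2-negative cells (SD, n = 3 each), a difference of -2.49 ± 0.27 (SE), or 5.62-fold lower, and -2.19 (4.56-fold lower) without that replicate.

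S100a10, the annexin A2 partner that links it to Ahnak, gave another picture. Its brightest probe set read 12.38, 12.88 and 12.78 in ICN2-positive arrays, against 12.69, 12.95 and 12.67 in ICN2-negative arrays, and the groups overlapped. The difference was -0.10 ± 0.16 (SE) on the log2 scale, and 0.05 without ICN2-positive replicate 1. Its other probe sets differed by 0.0027 and 0.12, and their groups overlapped too. All 3 probe sets of S100a10 passed the filter on low values.

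**Figure D1:**
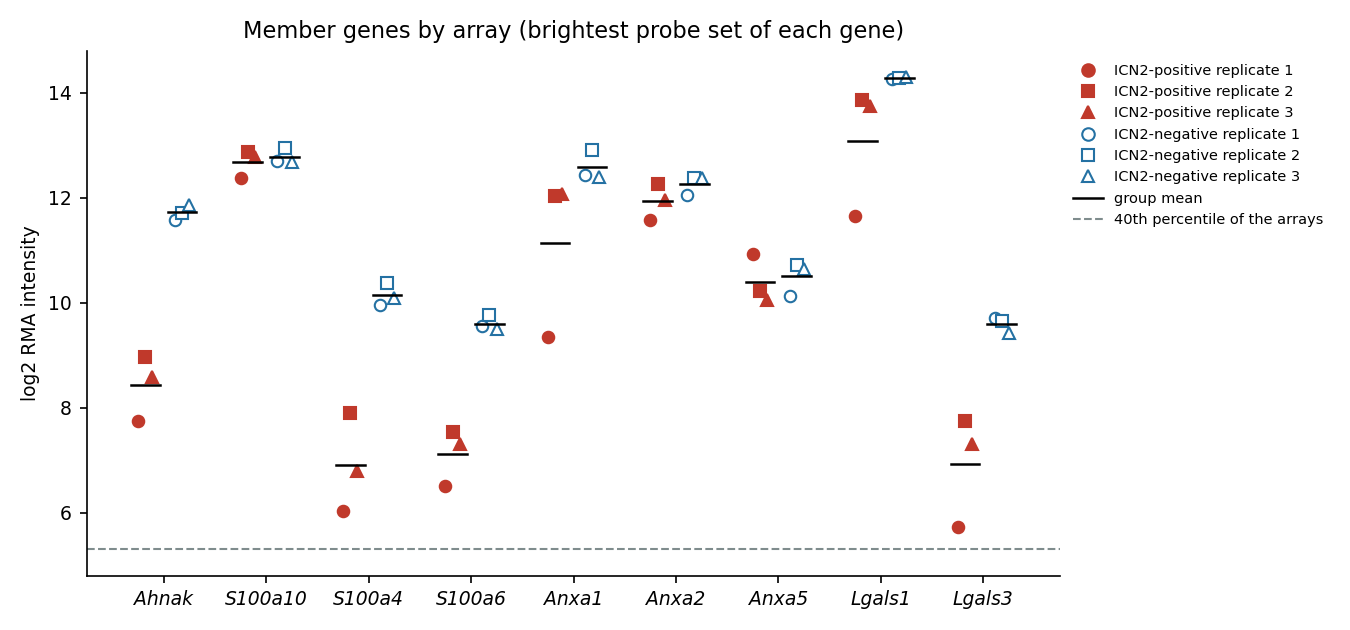
Log2 RMA intensity (vertical axis) of the brightest probe set of each of the 9 members read, by array: filled red symbols for the 3 ICN2-positive arrays at the left of each pair and open blue symbols for the 3 ICN2-negative arrays, with a bar at each group mean and a dashed line at the 40th percentile of the arrays. Ahnak, S100a4, S100a6 and Lgals3 are widely separated, while S100a10, Anxa2 and Anxa5 overlap; heights of different genes should not be compared, since probe sets differ in brightness.

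Among the annexins, Anxa2, the phospholipid-binding partner of S100a10, had overlapping groups. It read 11.58, 12.26 and 11.95 in ICN2-positive arrays, against 12.05, 12.38 and 12.38 in ICN2-negative arrays. The difference was -0.34 ± 0.20 (SE), or 1.27-fold lower, and -0.16 without ICN2-positive replicate 1. The other 2 probe sets of Anxa2 lay below the limit for low values on all 6 arrays.

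Anxa5, the phosphatidylserine-binding annexin used as a reagent for apoptotic cells, also overlapped. It read 10.93, 10.22 and 10.04 in ICN2-positive arrays and 10.14, 10.72 and 10.64 in ICN2-negative arrays, a difference of -0.10 ± 0.28 (SE). It was the single member whose highest ICN2-positive value came from replicate 1. Without that replicate the difference was -0.37.

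Anxa1, a glucocorticoid-inducible annexin that dampens inflammation through formyl peptide receptors, had a large difference in 1 array. It read 9.34, 12.03 and 12.08 in ICN2-positive replicates 1, 2 and 3, against 12.44, 12.90 and 12.39 in ICN2-negative replicates. The groups were separated, but replicates 2 and 3 lay close below the ICN2-negative arrays. The means were 11.15 ± 1.57 in ICN2-positive and 12.58 ± 0.28 in ICN2-negative cells (SD, n = 3 each), a difference of -1.43 ± 0.77 (SE), or 2.70-fold lower. Leaving out replicate 1 brought it to -0.53, or 1.44-fold lower. Its other probe set, above the limit for low values on 3 arrays, differed by -0.61 with overlapping groups.

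Lgals1, a galectin that forms dimers and cross-links surface glycoproteins, resembled Anxa1. Its brighter probe set read 11.65, 13.86 and 13.74 in ICN2-positive arrays, against 14.26, 14.29 and 14.30 in ICN2-negative arrays. The ICN2-negative arrays were nearly identical, and replicate 1 stood far below the other ICN2-positive arrays. On the linear scale the ICN2-negative values were 19632 to 20114, near the highest intensity of any probe set, 24678.6. Whether a ceiling of the arrays has a part in this was not tested. The difference was -1.20 ± 0.60 (SE), or 2.29-fold lower, and -0.48 (1.40-fold lower) without that replicate. The other probe set read 10.07, 12.86 and 12.55 in ICN2-positive arrays and 13.54, 13.59 and 13.69 in ICN2-negative arrays. It differed by -1.78, and by -0.90 without replicate 1, with separated groups.

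Lgals3, a galectin that assembles through its amino-terminal tail and is abundant in macrophages, was lower on every ICN2-positive array. It read 5.73, 7.75 and 7.31 in ICN2-positive arrays, against 9.71, 9.65 and 9.42 in ICN2-negative arrays. The reading of 5.73, in ICN2-positive replicate 1, was dim. It lay below the median of that array, 6.05, and above the limit for low values, 5.26 to 5.30. The means were 6.93 ± 1.06 in ICN2-positive and 9.59 ± 0.15 in ICN2-negative cells (SD, n = 3 each), a difference of -2.67 ± 0.52 (SE), or 6.34-fold lower. Without ICN2-positive replicate 1 it was -2.06, or 4.18-fold lower, and all ICN2-positive arrays remained below all ICN2-negative ones.

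The members thus ran from Ahnak (-3.29) and S100a4 (-3.23), through Lgals3 (-2.67) and S100a6 (-2.49), to Anxa1 (-1.43) and Lgals1 (-1.20), and then to Anxa2 (-0.34), Anxa5 (-0.10) and S100a10 (-0.10). Within the first 4 genes, the ranges of 1 SE around the differences of neighbours in this order overlapped, and so did those of Anxa1 and Lgals1. The differences between members were not tested. All 3 ICN2-positive arrays lay below all 3 ICN2-negative arrays for 6 of the 9 members (Ahnak, S100a4, S100a6, Anxa1, Lgals1 and Lgals3), and for 16.9% of all 12837 genes. In limma over all genes, 3 of the 9 (Ahnak, S100a4 and S100a6) fell among the genes called lower at an adjusted p under 0.05, which were 1.78% of all genes. The list was chosen on this same contrast, so nothing is read from these counts. These calls varied with the processing and with the arrays used. Lgals3 was called as well, for 4 members in all, under a stricter filter, median centring, an intensity trend, array weights and the mean of a gene's probe sets. Without probe sets ending in _x_at, _s_at or _a_at, 5 members were read and 2 called (Ahnak and S100a4). Leaving out ICN2-positive replicate 1 gave 5 called members, with Lgals1 and Lgals3 in addition, among 768 calls over all genes in place of 560. Leaving out ICN2-positive replicate 3 gave 1 (Ahnak) among 141, and ICN2-negative replicate 1 gave 2 (Ahnak and S100a6) among 272. When replicate 2 or 3 of the ICN2-negative group was left out, 0 members were among the 99 and 100 calls.

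Relative to the ICN2-negative mean, the 3 ICN2-positive arrays behaved differently across the list. Replicate 1 had the lowest ICN2-positive value in 8 of the 9 members (88.9%), and in 37.3% of all genes tested. The median of the members was -3.10 for replicate 1, -0.55 for replicate 2 and -0.54 for replicate 3, where the medians of all genes were 0.04, 0.0096 and 0.013 on the log2 scale. On the ICN2-positive array nearest to the ICN2-negative mean, which was replicate 2 in each case, Ahnak was still at -2.75, S100a4 at -2.24, S100a6 at -2.07 and Lgals3 at -1.84. Anxa1 was -3.24 in replicate 1 but -0.55 and -0.50 in replicates 2 and 3, and Lgals1 was -2.63 in replicate 1 but -0.42 and -0.54 in replicates 2 and 3. The wide ICN2-positive spread was seen in the median range of the members, 1.22 over the ICN2-positive and 0.29 over the ICN2-negative arrays, where the median over all genes was 0.29 for ICN2-positive and 0.22 for ICN2-negative arrays.

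**Figure D2:**
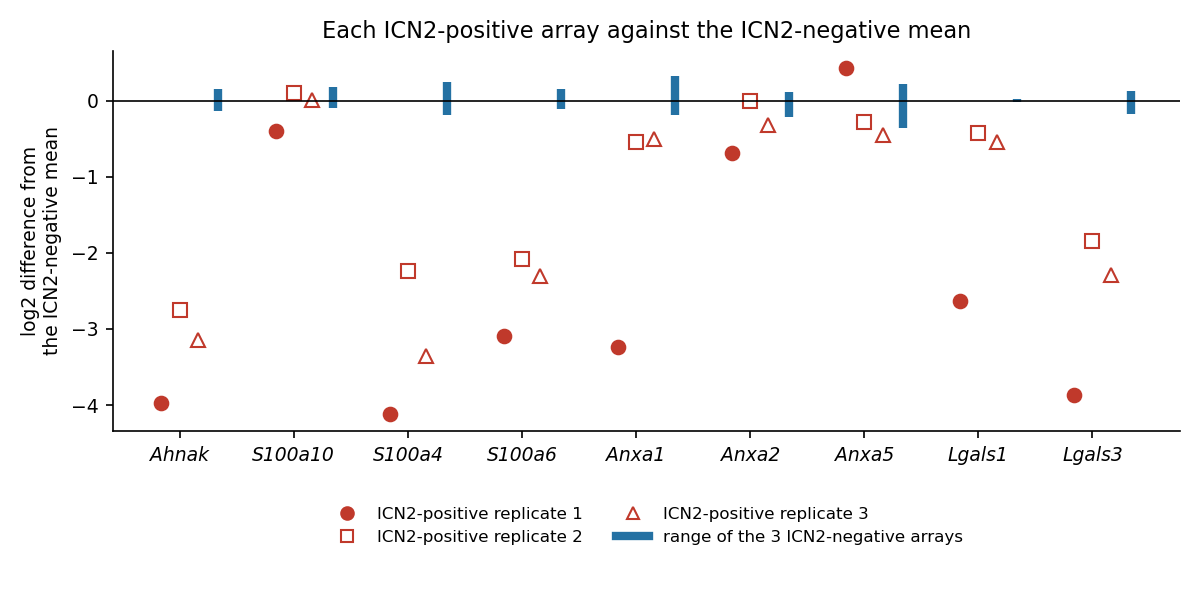
Log2 intensity of each ICN2-positive array minus the mean of the 3 ICN2-negative arrays (vertical axis) for the 9 members, with a blue bar for the range of the ICN2-negative arrays. Replicate 1 (filled circles) is the lowest ICN2-positive array for every member except Anxa5; Anxa1 and Lgals1 are near the ICN2-negative range in replicates 2 and 3, whereas Ahnak, S100a4, S100a6 and Lgals3 are far below it in all 3.

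Marker lists of cell types differed between the groups in both directions, and some share genes with the list of the sorted progenitors. Over all genes tested, 47% had a lower ICN2-positive mean. Of all genes, 4.36% were called in either direction and 1.78% were called lower. The means of 9 of 10 monocyte and macrophage markers were lower, with 0 called by limma, and the summed linear intensity of the list was 2519 to 13719 in ICN2-positive and 27628 to 37298 in ICN2-negative arrays. It was lowest, 2519, in ICN2-positive replicate 1. All 10 of these markers passed the filter. For granulocyte-monocyte progenitor markers, 7 of 7 tested means were lower, 0 called, with sums of 10485 to 57163 in ICN2-positive and 72816 to 79397 in ICN2-negative arrays. For dendritic cell markers 6 of 7 means were lower and 1, Flt3, was called lower. Their sums were 2740 to 5773 in ICN2-positive and 9869 to 13376 in ICN2-negative arrays. For late neutrophil markers 6 of 7 tested means were lower and 1 was called lower. Their sums were 1643 to 3740 in ICN2-positive and 3020 to 4848 in ICN2-negative arrays. B cell markers summed to 869 to 2030 in ICN2-positive and 3641 to 14442 in ICN2-negative arrays, with 6 of 6 tested means lower and 1 called. Mast cell and basophil markers summed to 4903 to 26350 in ICN2-positive and 9812 to 13990 in ICN2-negative arrays, lowest in ICN2-positive replicate 1. Of these 9 markers 5 means were higher and 4 lower, and 3 genes (Mcpt1, Mcpt2 and Mcpt4) were called higher. NK cell markers summed to 13617 to 23987 in ICN2-positive and 11410 to 12919 in ICN2-negative arrays. Of 5 tested means 3 were higher, and 2 genes (Gzma and Gzmb) were called higher. The other tested NK cell markers differed by -0.30 ± 0.15 (Nkg7), -0.81 ± 0.77 (Klrk1) and 0.08 ± 1.00 (Klrd1, SE). Nkg7 was the brightest of the list on the ICN2-negative arrays, at 13.40 to 13.62. For T cell markers 4 of 5 tested means were higher and 0 were called, with a median difference of 1.25 and sums of 267 to 563 in ICN2-positive and 194 to 305 in ICN2-negative arrays. Erythroid markers had 3 of 6 tested means lower and 1 called lower. They summed to 22706 to 27814 in ICN2-positive and 24788 to 25193 in ICN2-negative arrays, highest in ICN2-positive replicate 1. Megakaryocyte markers summed to 1137 to 2979 in ICN2-positive and 1720 to 7184 in ICN2-negative arrays, with 4 of 6 means lower and 0 called. Sums of endothelial and stromal markers were 202 to 352 and 234 to 330 in the same order, with 2 of 4 tested means lower and 0 called. The part of these cell type markers in the members' differences was not tested.

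The S100 members share a gene cluster on chromosome 3, and the differences were not uniform along it. In chromosome order in the RefSeq table, S100a1 (-0.82 ± 0.20), S100a13 (-0.57 ± 0.20), S100a14 (0.04 ± 0.16) and S100a16 (-0.08 ± 0.12, log2 difference ± SE) come before S100a4. S100a5, which was below the filter, is the single gene between S100a4 and S100a6. S100a8 (-0.72 ± 0.47) and S100a9 (-0.36 ± 0.43), the subunits of calprotectin of neutrophils and monocytes, follow S100a6. S100a10 (-0.10 ± 0.16) is farther off, next to S100a11, with 56 protein-coding genes between S100a9 and S100a11. S100a4 and S100a6, at -3.23 and -2.49, had the greatest differences of the S100 genes tested on this chromosome. Of the remaining members, Ahnak and Anxa1 lie on chromosome 19, Anxa5 on chromosome 3, Anxa2 on chromosome 9, Lgals1 on chromosome 15 and Lgals3 on chromosome 14.

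**Figure D3:**
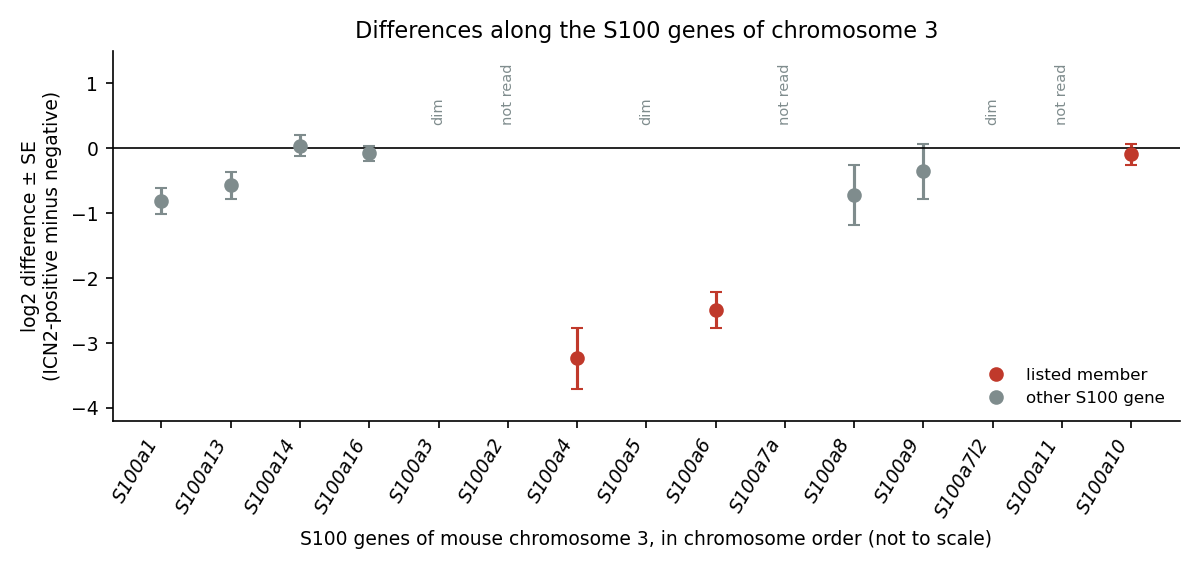
Log2 difference, ICN2-positive minus ICN2-negative, with its SE (vertical axis) for the S100 genes of mouse chromosome 3 in chromosome order, not to scale: red points for listed members and grey points for other S100 genes, with genes below the filter marked dim and genes without a probe set of their own marked not read. S100a4 and S100a6 stand at -3.23 and -2.49, while the genes on both sides lie between -0.82 and 0.04.

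S100a8 and S100a9 showed how far 1 array could weigh on this cluster. S100a8 read 11.87, 13.59 and 13.40 in ICN2-positive and 13.55, 13.68 and 13.80 in ICN2-negative arrays (limma adjusted p = 0.365). S100a9 read 12.13, 13.68 and 13.51 in ICN2-positive and 13.29, 13.42 and 13.68 in ICN2-negative arrays (limma adjusted p = 0.624). Both had 1 low ICN2-positive array, replicate 1, and overlapping groups. Without it the differences were -0.18 for S100a8 and 0.13 for S100a9.

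Genes were then ranked by how closely their profile over the 6 arrays, centred on its mean, followed that of Ahnak, by the root mean square difference in log2. The closest outside the list were Il6st (0.22), Cfp (0.30), Lonrf3 (0.33), Ccdc149 (0.34) and Selenom (0.35), where the median over all other tested genes was 1.70. Il6st, the signalling receptor subunit shared by interleukin 6 family cytokines, read 6.18, 7.79 and 7.40 in ICN2-positive and 10.08, 10.77 and 10.71 in ICN2-negative arrays. Cfp, which encodes properdin of the complement system, read 7.46, 8.42 and 8.06 in ICN2-positive and 10.52, 10.61 and 10.95 in ICN2-negative arrays. Both kept the order of the ICN2-positive arrays seen for Ahnak, with replicate 1 lowest and replicate 2 highest. Among the members, S100a4 was at 0.27, S100a6 at 0.42 and Lgals3 at 0.44, ranks 2, 15 and 20 among all tested genes. Anxa1 (1.11), Lgals1 (1.12), Anxa2 (1.48), S100a10 (1.61) and Anxa5 (1.71) were less alike. The ranking uses the genotype contrast itself and describes these 6 arrays.

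The other genes of the 3 families were read in the same limma fit, with p-values adjusted over all genes; 4.36% of all genes were called there in either direction. None of the 18 tested genes of 30 listed was called (0 higher, 0 lower), while 6 had an unadjusted p under 0.05 (2 higher, 4 lower), where 27.4% of all genes did. Their median difference was -0.06, against 0.02 over all genes. Across the alternative settings named in the closing part, up to 3 were called lower and up to 2 higher. A further 8 of the 30 were below the filter and 4 had no probe set of their own.

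Of 5 other annexins tested, 0 were called and 2, Anxa6 and Anxa7, had an unadjusted p under 0.05. Anxa3, an annexin of neutrophil granules, read 7.20, 10.99 and 10.64 in ICN2-positive and 11.82, 12.14 and 12.22 in ICN2-negative arrays. Its groups were separated, but 1 ICN2-positive array was far lower than the others, and the difference was -2.45 ± 1.02 (SE, limma adjusted p = 0.193). Without ICN2-positive replicate 1 it was -1.24, and was called there (limma adjusted p = 0.0271). Anxa6, a large annexin with a doubled core, differed by -0.91 ± 0.36 (adjusted p = 0.179) and Anxa7 by 0.24 ± 0.07 (adjusted p = 0.113). Without ICN2-positive replicate 1 they differed by -0.50 and 0.27.

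Of 7 other S100 genes tested, 0 were called, and 2 had an unadjusted p under 0.05, both with lower ICN2-positive means. S100a1, known from muscle as a regulator of calcium handling, read 9.19, 9.83 and 9.54 in ICN2-positive and 10.08, 10.54 and 10.39 in ICN2-negative arrays. The groups were separated, with a difference of -0.82 ± 0.20 (SE, limma adjusted p = 0.0793). S100a13, which takes part in release of proteins without a signal peptide, differed by -0.57 ± 0.20 (adjusted p = 0.147).

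Of 6 other galectins tested, 0 were called, and 1 had a higher and 1 a lower mean at an unadjusted p under 0.05. Lgals7, a galectin best known from stratified epithelia, ran opposite to the listed galectins. It read 8.84, 8.48 and 8.39 in ICN2-positive and 7.89, 7.16 and 7.32 in ICN2-negative arrays. The pattern was separated, with a difference of 1.12 ± 0.23 (SE, limma adjusted p = 0.0577). Lgals7 was called under an intensity trend (limma adjusted p = 0.0462), array weights (0.0121) and the replicate number as a block (0.0411). It was also called without ICN2-negative replicate 1 (limma adjusted p = 0.0435). The galectin-related Lgalsl differed by -1.18 ± 0.38 (adjusted p = 0.125), and Lgals4 by -0.21 ± 0.20 (adjusted p = 0.532). Without ICN2-positive replicate 1 they differed by -0.79 and -0.12.

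**Figure D4:**
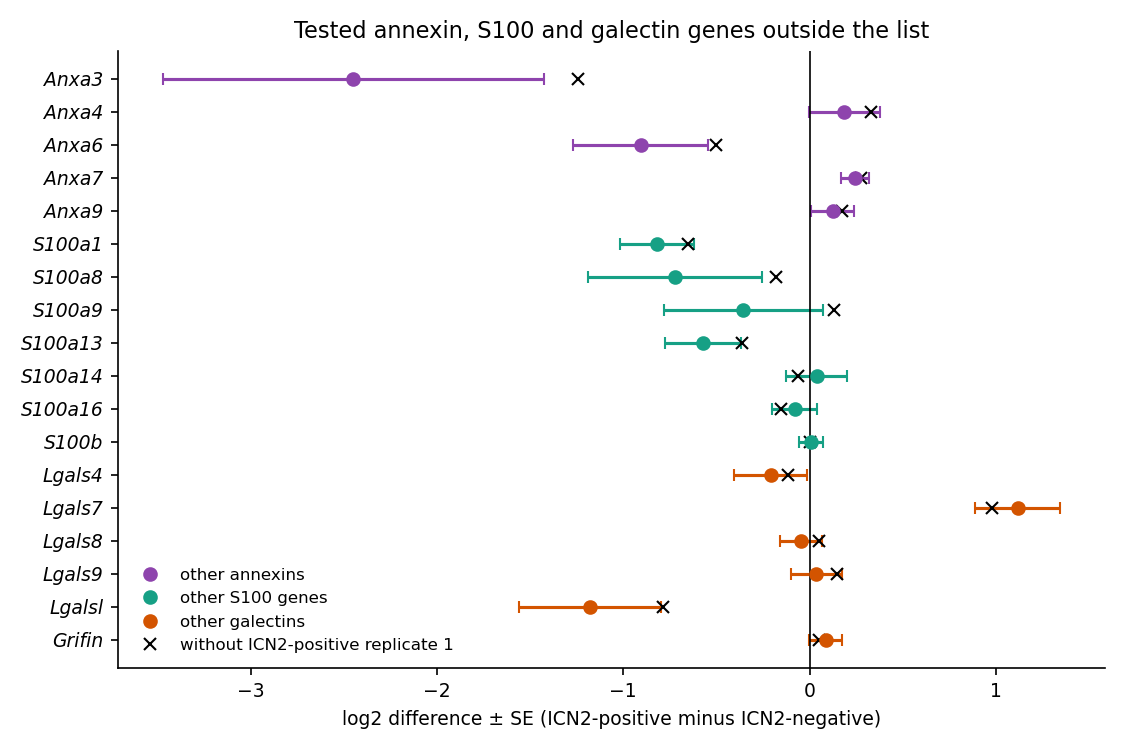
Log2 difference, ICN2-positive minus ICN2-negative, with its SE (horizontal axis) for the 18 tested annexin, S100 and galectin genes outside the list, with a cross for the difference without ICN2-positive replicate 1. None passed the adjusted threshold; Anxa3 has the lowest value and Lgals7 the highest, and the cross of Anxa3 lies at -1.24.

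Genes that work with the members gave a like count. Of 52 listed partners, 34 were tested and 0 were called by limma. Of those tested, 14 had an unadjusted p under 0.05 (5 higher, 9 lower), where 27.4% of all genes did. A further 12 were below the filter and 6 had no probe set of their own. In the list of membrane repair and Ahnak partners, 0 of 9 were called. Capn1, a calcium-activated protease of the calpain family, read 9.70, 9.52 and 9.69 in ICN2-positive and 9.98, 10.10 and 10.14 in ICN2-negative arrays. These groups were separated, with a small difference of -0.44 ± 0.08 (SE, limma adjusted p = 0.0513). Capn1 was called under a stricter filter (limma adjusted p = 0.0419), cyclic loess (0.0358) and array weights (0.0104). Cacnb1, a calcium channel subunit of the class that binds Ahnak, differed by -0.25 ± 0.06 (adjusted p = 0.0887), and the lipase gene Plcg1 by 0.42 ± 0.20 (adjusted p = 0.246). The Ahnak relative Ahnak2 was below the filter.

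The plasminogen system, which the annexin A2 and S100a10 complex is known to engage at the cell surface, was mostly dim, with 2 of 9 genes tested. The plasminogen receptor gene Plgrkt differed by 0.27 ± 0.15 (SE, limma adjusted p = 0.29) and the urokinase receptor gene Plaur by -0.37 ± 0.27 (adjusted p = 0.409). Among 8 tested targets and receptors of S100 proteins and annexin A1, 0 were called. Myh10, a non-muscle myosin heavy chain, differed by 0.55 ± 0.14 (adjusted p = 0.0828) and Cacybp, the S100a6 binding protein, by 0.21 ± 0.08 (adjusted p = 0.182). Tlr4, a receptor for the S100a8 and S100a9 complex, differed by -1.30 ± 0.65 (adjusted p = 0.259). Without ICN2-positive replicate 1 the differences were 0.52 for Myh10, 0.15 for Cacybp and -0.57 for Tlr4.

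All 15 galectin ligands and glycan enzymes were tested and 0 were called. Of these, 10 had an unadjusted p under 0.05, 3 with higher and 7 with lower ICN2-positive means, where 27.4% of all genes did. The median difference of the list was -0.28. Mgat1, which opens the path to complex N-glycans, differed by -0.48 ± 0.10 (SE, limma adjusted p = 0.065). B4galt1, which adds the galactose that galectins bind, differed by -0.28 ± 0.06 (adjusted p = 0.0657). Mgat2, the next branching enzyme after Mgat1, differed by -0.36 ± 0.08 (adjusted p = 0.075). All 3 missed the threshold in the main fit. B4galt1 passed it under a stricter filter (limma adjusted p = 0.0488), an intensity trend (0.0174) and array weights (0.00805). Mgat1 passed it under the trend (limma adjusted p = 0.0439) and array weights (0.011), and Mgat2 under array weights (0.0295). The widest difference of the list was that of Cd7, a surface glycoprotein of T and NK cells that binds a galectin in human cells. It read 8.12, 11.02 and 9.79 in ICN2-positive and 7.87, 7.51 and 6.61 in ICN2-negative arrays, a difference of 2.31 ± 0.77 (SE, limma adjusted p = 0.133). The groups were separated, and without ICN2-positive replicate 1 the difference was 3.07 and was called (limma adjusted p = 0.042).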

How the data were processed

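Expression was measured on 6 Affymetrix mouse arrays, with 5 ng of total RNA per sample amplified by an Ovation kit, per the labels' protocols. The deposited table holds 1 intensity per probe set and array, made by the authors with RMA, per the submitters' processing notes; no version is stated there. Values were linear, 5.13 to 24678.6, and log2 was taken here. RMA gives all arrays the same distribution, so a change in total RNA per cell would not be seen. The table carries no detection calls, and the number of arrays limits the precision.

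Of 45101 probe sets, 64 were controls, 34945 had 1 gene in the platform annotation, 932 several and 9160 none. The filter on low values asked for a value over the 40th percentile of the array on 3 or more of the 6 arrays, which kept 27424 probe sets and 12837 genes. Where several probe sets represent a gene, the brightest on average stands for it. Genotypes were compared with limma (version 3.58.1, R 4.3.3; lmFit and eBayes without covariate), with Benjamini-Hochberg adjustment over all genes and a threshold of 0.05; the script was tested on simulated data. Alternatives were other filters, normalizations, variance models, array weights, probe set choices, the replicate number as a block and each array left out. Same-numbered replicates had residual correlations of 0.178, 0.135 and 0.0935 and were not treated as pairs.

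The members and lists were chosen with earlier results of these data known. Named were all members, S100a8 and S100a9, the 5 genes most like Ahnak, and up to 3 genes of smallest p in each family or partner list. Flt3, Mcpt1, Mcpt2, Mcpt4, Gzma, Gzmb, Nkg7, Klrk1, Klrd1, Cd7 and Mgat4a were named after their values were seen. Promoter letters came from RefSeq (GRCm38.p6), and protein sequences were not used here.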

Additional observations from a re-analysis of the deposited data

How the results depend on the processing

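Calls over all genes numbered 560, against 847 with an intensity trend, 3262 with array weights, 340 with the replicate number as a block, and 99 to 768 with 1 array left out; other settings stayed within 1.5 times of 560. For the other annexin, S100 and galectin genes, the 0 calls higher became 1 with a trend, 2 with array weights, 1 with the replicate block and 0 to 1 with 1 array left out, and the 0 calls lower became 3 with array weights, 1 with the block and 0 to 1 with 1 array left out. Under the block these were Lgals7 and S100a1 (limma adjusted p = 0.0411 each); not every array's residuals correlated best with those of its own number, since ICN2-positive replicate 3 was closest to ICN2-negative replicate 2 (0.162). For partner genes, calls lower became 2 with a stricter filter, 1 with cyclic loess, 2 with a trend and 7 with array weights, and calls higher became 5 with array weights, 1 with the mean of probe sets (Mgat4a) and 0 to 1 with 1 array left out (Cd7, without ICN2-positive replicate 1). The members' median difference of -1.43 was -0.61 with array weights, -2.67 over the 5 members left without probe sets ending in _x_at, _s_at or _a_at, and -1.90 to -0.53 with 1 array left out. Ahnak differed by -2.17 with the mean of its probe sets. Anxa5 ranged between -0.44 and 0.08 and S100a10 between -0.20 and 0.05, so neither has a settled direction; the other 7 members stayed lower under every setting that read them. The causes of these changes were otherwise not tested.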
